A study of Mus musculus with 12 samples.

Results

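The genes described here encode the machinery of synaptic vesicles and of regulated exocytosis: the synaptotagmins and synaptotagmin-like proteins, synapsins, SV2 proteins, Rab3 proteins and their regulators, SNAP proteins, syntaxins, VAMPs, complexins, RIMs, Unc13 proteins and syntaxin-binding proteins. They were chosen by the beginning of their symbol in the platform's probe table, a rule that reads no measured value but was proposed with earlier results of these data known, and where several single-symbol probe sets measured a gene, the brightest on average stood for it. This gave 88 of the 16244 genes on the array, of which 87 were among the 15900 genes tested. Cplx3, a complexin known from the retina, was the exception, since its signal stayed under 6 log2 units in the mean of every group. Among the 88 are 12 genes from Rab30 to Rab39, which begin with the same letters as Rab3 but encode other trafficking GTPases, and they are described apart. Of the remaining genes, 11 are known from adrenal chromaffin cells and from neurons alike, 10 are known mainly from neurons, and 55 are other members of the families. Vamp2 was measured only by a probe set listed with a second gene and was left out.

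Total RNA of whole adrenal glands from 21-week-old male C57Bl/6J mice was hybridised to Affymetrix Mouse Gene 1.0 ST arrays, which report a log2 signal for each probe set. The ASP group received chronic aspartame, a sweetener, in its water at a dose of 46 mg per kg, beginning in utero through the dam and continuing to the end of the study. The CGP group was exposed from conception to weaning to CGP 39551, which competes with glutamate at NMDA receptors. It was given to the dams, at a dose of 5 mg per kg worked out from the dams' body weight. The ASP+CGP group received both agents. The CON group had plain water, and all groups had standard chow. RNA from each group's mice had been combined in equal amounts, so each group is 1 pool measured on 3 arrays, and all p-values here measure the spread between arrays of a pool, not the spread between mice.

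In neurons and in the chromaffin cells of the adrenal medulla, transmitter is held in vesicles that dock at the plasma membrane and fuse when calcium enters. Fusion is driven by SNARE proteins: a VAMP on the vesicle pairs with a syntaxin and a SNAP protein on the plasma membrane. Synaptotagmins sense calcium, complexins clamp and assist the assembled SNAREs, Unc13 and RIM proteins prepare vesicles for release, and Rab3 proteins attach to vesicles before fusion. Synapsins hold the small clear vesicles of nerve terminals in reserve, and SV2 proteins are membrane glycoproteins of secretory vesicles. Chromaffin cells use much of the same machinery for their dense-core granules. Several paralogs, among them Syn1, Cplx1 and Rims1, are known chiefly from nerve terminals.

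Promoter sequences are shown for 5 of these genes because the members fell into sets that moved in different ways in ASP: Syn1, Cplx1 and Sv2a were among those that rose, Snap23 was among those that fell, and Stx1a, the plasma-membrane syntaxin of regulated release, was not called. Each is the run of 250 bases before the annotated transcription start, from RefSeq on build GRCm38.p6, printed 5′ to 3′ on the strand of the gene. Capitals mark matches to 3 motifs searched on both strands: the RE1 element, to which the repressor REST binds (TTCAGCACC, then 2 bases of any kind, then GGACAGCGC, with up to 3 mismatches over the 18 letters compared), the cyclic AMP response element (TGACGTCA) and the GC box bound by Sp1 (GGGCGG, or CCGCCC on the other strand). Snap23 has no capitals because no motif matched in the stretch shown.
Syn1, chrX:20920919-20921168, minus strand: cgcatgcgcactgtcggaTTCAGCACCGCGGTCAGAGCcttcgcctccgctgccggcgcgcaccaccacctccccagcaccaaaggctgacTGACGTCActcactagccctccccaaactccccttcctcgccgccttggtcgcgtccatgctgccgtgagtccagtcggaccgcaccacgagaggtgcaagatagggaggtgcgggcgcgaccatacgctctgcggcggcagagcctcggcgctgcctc
Cplx1, chr5:108550028-108550277, minus strand: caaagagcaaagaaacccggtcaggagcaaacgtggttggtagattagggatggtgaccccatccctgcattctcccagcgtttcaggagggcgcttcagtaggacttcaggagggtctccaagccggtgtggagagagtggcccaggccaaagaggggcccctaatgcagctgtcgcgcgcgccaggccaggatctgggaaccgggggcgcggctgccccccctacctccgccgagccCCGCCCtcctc
Sv2a, chr3:96180977-96181226, plus strand: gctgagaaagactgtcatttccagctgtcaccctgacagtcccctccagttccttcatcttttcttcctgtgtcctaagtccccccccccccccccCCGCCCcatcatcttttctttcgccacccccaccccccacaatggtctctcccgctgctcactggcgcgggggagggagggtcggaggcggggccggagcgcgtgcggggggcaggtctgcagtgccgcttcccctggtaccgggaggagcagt
Snap23, chr2:120567421-120567670, plus strand: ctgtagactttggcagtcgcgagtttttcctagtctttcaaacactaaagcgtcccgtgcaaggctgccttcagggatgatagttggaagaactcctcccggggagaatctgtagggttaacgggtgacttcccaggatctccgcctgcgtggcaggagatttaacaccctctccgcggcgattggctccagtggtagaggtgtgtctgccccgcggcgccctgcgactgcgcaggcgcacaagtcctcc
Stx1a, chr5:135023232-135023481, plus strand: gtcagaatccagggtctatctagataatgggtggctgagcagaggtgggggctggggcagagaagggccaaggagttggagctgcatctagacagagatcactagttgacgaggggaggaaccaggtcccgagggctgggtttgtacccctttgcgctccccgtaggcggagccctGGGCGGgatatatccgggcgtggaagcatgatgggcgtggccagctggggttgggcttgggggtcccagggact

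A promoter was found in the RefSeq table for 70 of the 88 genes, which had 91 promoters together (windows of 300 bases, 250 before the start and 50 after it). The RE1 motif matched in 1 of these 91 promoters, that of Syn1, at positions -232 to -213 from the start with 2 mismatches. It matched in 0.113% of all 32851 promoters in the table. The cyclic AMP response element matched in 2 promoters, those of Syn1 (positions -159 to -152, apart from the RE1 match) and Stxbp3, against 1.79% of all promoters. The GC box was found in 64.8% of the members' promoters and in 35.7% of all, and the CCAAT box in 26.4% and 37.4%. The median GC content was 62.0% in the members' promoters and 52.7% in all promoters. Among members called higher in ASP, 70.6% of 34 promoters held a GC box, among those called lower 60.0% of 5, and among those not called 62.7% of 51. Such matches describe letters in a window and were set against no binding data.

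Replicate arrays of a pool had correlations of 0.989 to 0.995 over all probe sets, and the array medians lay between 7.84 and 7.94 log2 units. The interquartile range of signals was narrower on the ASP+CGP arrays (2.20 to 2.29) than on the CON arrays (2.58 to 2.62). A gene was called where limma's adjusted p over all 15900 genes was under 0.05 and the fold change was at least 1.4. Cyclic loess, another scaling of the arrays, moved the median difference of all genes up by 0.11 in ASP against CON and by 0.15 in ASP+CGP against CON, so small decreases in these comparisons depend on the scaling.

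The comparison of ASP with CON addressed what chronic aspartame did to the expression of these genes in the adrenal. All 7 synapsin, SV2 and Snap91 genes, 11 of 17 synaptotagmins and both complexins tested rose in ASP, by up to 9.26-fold for Cplx1, while 0 of 13 syntaxins and 1 of 6 VAMP genes did. Of 87 genes, 31 rose and 6 fell. Over all genes tested, 9.81% were called higher and 8.13% lower. The median log2 difference of the 87 genes was 0.04, beside -0.10 for all genes (0.19 beside 0.01 after cyclic loess). In every gene called higher except Syt6, the 3 ASP arrays lay above all arrays of the other pools. These genes were picked by their call in ASP, and no share over all genes is given, so this is a description only.

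**Figure D1:**
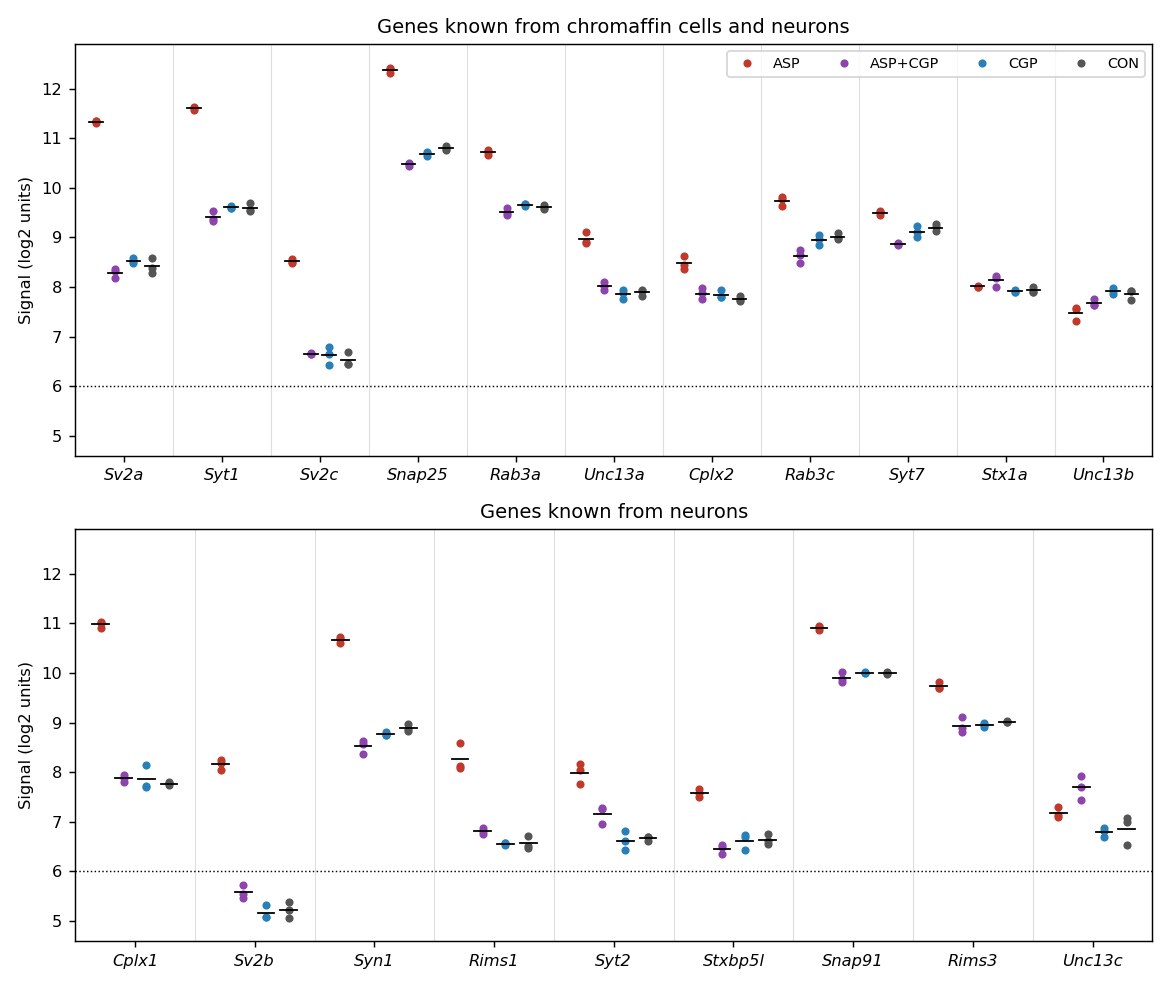
Log2 signal of each gene of the shared set (top) and the neuron-only set (bottom) on every array of the ASP, ASP+CGP, CGP and CON pools, with the pool mean as a bar and the level of 6 as a dotted line. The ASP arrays stand above the other pools for 8 genes called higher of 11 in the top panel and 8 of 9 in the bottom panel, while Stx1a, Unc13b and Unc13c follow other patterns.

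All 7 genes of the synapsin, SV2 and Snap91 group rose in ASP. Sv2a (probe set 10494372, Entrez 64051), the most widely expressed SV2 gene, had signals of 11.30, 11.35 and 11.35 on the ASP arrays, against 8.29, 8.58 and 8.37 on the CON arrays. Its log2 difference was 2.92 ± 0.08 (SE, n = 3 arrays per pool), or 7.55-fold, and limma gave an adjusted p of 2.08e-13. The ASP+CGP arrays (8.37, 8.33 and 8.17) and the CGP arrays (8.52, 8.59 and 8.48) overlapped the CON arrays. Sv2b (probe set 10564646, Entrez 64176), an SV2 gene known from the brain, had signals of 8.24, 8.05 and 8.19 in ASP, against 5.38, 5.21 and 5.06 in CON. Its means in all pools but ASP lay under 6, so it entered the test through its ASP level alone, and the rise is given as at least 4.47-fold with no further support drawn from its test. Without the 2 members whose CON mean was under 6 (Sv2b and Rab38), 30 of 85 genes rose. Sv2c (probe set 10411274, Entrez 75209) had 8.51, 8.56 and 8.48 in ASP, against 6.45, 6.69 and 6.44 in CON, a 3.97-fold rise. The ASP values of Sv2a and Sv2c were thus tight between arrays and far from those of every other pool.

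Syn1 (probe set 10603843, Entrez 20964), the synapsin of nerve terminals whose promoter is printed above, had signals of 10.60, 10.72 and 10.70 in ASP, against 8.83, 8.97 and 8.88 in CON. The rise was 3.43-fold (log2 difference 1.78 ± 0.07 SE, limma adjusted p = 1.68e-11). Its paralogs Syn2 and Syn3 rose by log2 differences of 1.08 and 0.58, so the 3 synapsins moved one way by unequal amounts. Snap91, which encodes the clathrin assembly protein AP180 of vesicle recycling, had 10.87, 10.92 and 10.96 in ASP and 10.01, 10.02 and 9.99 in CON, a 1.88-fold rise.

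Of 17 synaptotagmins, 11 rose in ASP and none was called lower. Syt1 (probe set 10372324, Entrez 20979), the fast calcium sensor of neurons and chromaffin cells, had signals of 11.57, 11.62 and 11.63 in ASP, against 9.53, 9.55 and 9.69 in CON (log2 difference 2.02 ± 0.06 SE, 4.05-fold, limma adjusted p = 1.98e-12). Syt11 (probe set 10499431, Entrez 229521), a synaptotagmin that does not bind calcium, rose most of this family. Its signals were 11.28, 11.38 and 11.29 in ASP and 8.73, 8.79 and 8.79 in CON (log2 difference 2.55 ± 0.06 SE, 5.84-fold, limma adjusted p = 8.66e-14). Syt5 (probe set 10559580, Entrez 53420) had 10.80, 10.85 and 10.87 in ASP and 8.81, 8.86 and 8.79 in CON, a 4.06-fold rise. The groups did not overlap in any of these 3 genes. Syt2, a fast sensor of hindbrain and motor synapses, rose 2.51-fold, with 7.77, 8.17 and 8.04 in ASP against 6.70, 6.61 and 6.69 in CON. Syt13 rose 3.04-fold and Syt10 2.54-fold, while Syt3, Syt4, Syt6, Syt9 and Syt16 rose by log2 differences of 0.65 to 1.04. Syt7, a slow, high-affinity sensor used by chromaffin cells and neurons, had 9.45, 9.51 and 9.54 in ASP and 9.13, 9.26 and 9.21 in CON. The difference of 0.30 ± 0.06 (SE) had a limma adjusted p of 0.00115 but was under the fold minimum, so Syt7 was not called. Of the synaptotagmin-like genes, whose products link Rab27 to granules, 1 of 4 was called. Sytl5 fell to 6.85, 7.0 and 6.97 in ASP, against 7.69, 7.74 and 7.86 in CON (log2 difference -0.83 ± 0.08 SE, limma adjusted p = 5.13e-07), and it was the single decrease that held under cyclic loess.

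The SNARE genes moved in more than one direction. Snap25 (probe set 10476512, Entrez 20614), the plasma-membrane SNARE of neurons and chromaffin cells, had signals of 12.42, 12.39 and 12.30 in ASP, against 10.76, 10.85 and 10.77 in CON. The rise was 2.99-fold (log2 difference 1.58 ± 0.06 SE, limma adjusted p = 5.21e-12). Its more broadly expressed paralog Snap23 went the other way, with 9.52, 9.59 and 9.46 in ASP and 10.17, 10.04 and 10.09 in CON (log2 difference -0.58 ± 0.06 SE, limma adjusted p = 2.71e-06). That decrease was not called after cyclic loess, where the difference was -0.41. Snap47 rose 1.60-fold and Snap29 was not called. Of 6 VAMP genes, Vamp1, a vesicle SNARE of neurons, alone was called. It had 10.93, 11.18 and 11.15 in ASP and 9.85, 10.00 and 9.94 in CON (2.22-fold, limma adjusted p = 1.49e-08). Vamp3, Vamp4, Vamp5, Vamp7 and Vamp8, known from endosomal and constitutive traffic, had log2 differences from -0.45 to 0.02.

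Of 13 syntaxins, none was called higher and 2 fell. Stx1a (probe set 10526261, Entrez 20907), the partner of SNAP-25 in regulated release, had signals of 8.01, 8.0 and 8.03 in ASP, against 7.90, 7.91 and 8.0 in CON. The log2 difference was 0.08 ± 0.06 (SE), with a limma adjusted p of 0.32. Snap25 was thus called higher and its partner Stx1a was not, and the difference between them was not tested. Stx17, a syntaxin of autophagosome fusion, fell (log2 difference -0.55), and Stx11, a syntaxin of immune cell granules, fell by 0.49. Neither was called after cyclic loess (-0.37 and -0.36), and Stx11 was also not called after centring on array medians (-0.47) or without ASP replicate 1 or 2 or CON replicate 1 or 3 (-0.48 to -0.42). The other 10 syntaxins, from Stx2 to Stx18, act mostly in Golgi, endosome and endoplasmic reticulum traffic and had log2 differences between -0.45 and 0.05.

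Complexins and syntaxin-binding proteins regulate the assembled or assembling SNAREs. Cplx1 (probe set 10532180, Entrez 12889), the complexin of fast central synapses, had the highest fold of all members. Its signals were 11.00, 11.04 and 10.91 in ASP, against 7.78, 7.81 and 7.74 in CON (log2 difference 3.21 ± 0.09 SE, limma adjusted p = 8.51e-13). The CGP arrays were at 7.70, 8.14 and 7.72 and the ASP+CGP arrays at 7.94, 7.89 and 7.81, all below every ASP array. Cplx2, the complexin of chromaffin cells as well as neurons, had 8.62, 8.44 and 8.37 in ASP and 7.71, 7.73 and 7.83 in CON, a 1.65-fold rise. Cplx3, left out of the test, had 5.35, 5.26 and 5.61 in ASP and 5.46, 5.47 and 5.30 in CON. Of 6 syntaxin-binding genes, Stxbp5l, which encodes the inhibitor tomosyn-2, was the member called. It had 7.67, 7.50 and 7.58 in ASP and 6.56, 6.76 and 6.61 in CON (1.92-fold, limma adjusted p = 2.96e-07). The remaining 5, with Stxbp2 and Stxbp3 among them, had differences from -0.43 to 0.30.

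Of 8 RIM and Unc13 genes, which act in vesicle priming, 3 rose and 1 fell in ASP. Rims1 (probe set 10353479, Entrez 116837), a scaffold of the presynaptic active zone, had 8.13, 8.58 and 8.09 in ASP and 6.47, 6.72 and 6.51 in CON (3.25-fold, limma adjusted p = 4.3e-09). Rims3 rose 1.64-fold, with 9.82, 9.69 and 9.69 in ASP and 9.02, 9.01 and 9.04 in CON. Rims4 fell by 0.50 on the log2 scale and was not called after cyclic loess (-0.33). Unc13a, the principal priming factor of glutamatergic synapses, had 8.89, 9.11 and 8.91 in ASP and 7.92, 7.95 and 7.83 in CON (2.10-fold). Unc13b, a priming factor with a wider distribution, had 7.31, 7.58 and 7.55 in ASP and 7.75, 7.93 and 7.92 in CON. Its difference of -0.39 was under the fold minimum.

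Several probe sets measured Unc13a and Unc13c, and they did not move alike. The probe set of Unc13c with the highest mean signal (10594969, Entrez 208898) gave 7.31, 7.14 and 7.10 in ASP and 7.07, 6.53 and 6.99 in CON and was not called (log2 difference 0.32 ± 0.13 SE, limma adjusted p = 0.056). In a fit over all probe sets, the other 5 probe sets of Unc13c were called higher in ASP. Of these, 4 had CON means under 6 (from 4.57 to 5.45), and 1 of the 4 was under 6 in ASP also (5.73), so a size is given only for the remaining probe set (10594965), a log2 difference of 0.69. Unc13a had 3 probe sets, of which 2 were called higher (0.65 and 1.07) and 1 was not (0.01). The values given for Unc13c therefore depend on the probe set, and the deposited table does not say which exons each probe set covers.

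**Figure D2:**
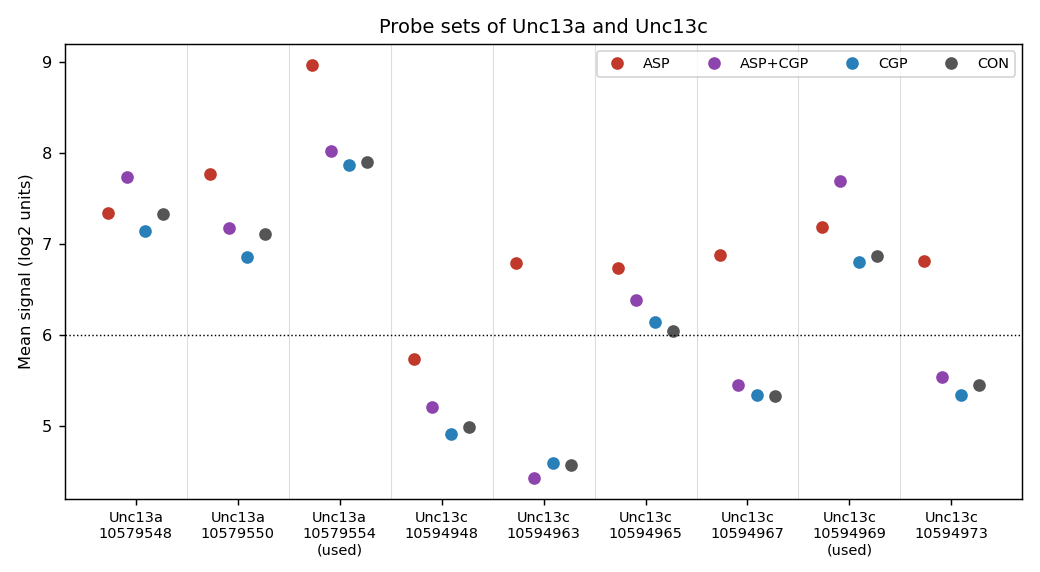
Mean log2 signal of each probe set of Unc13a and Unc13c in the ASP, ASP+CGP, CGP and CON pools, 3 arrays each, with the level of 6 as a dotted line. For Unc13c the probe set used (10594969) is highest in ASP+CGP, whereas in the other 5 probe sets ASP is highest.

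The Rab3 proteins are vesicle GTPases. Rab3a (probe set 10572485, Entrez 19339), the main form in neurons, had signals of 10.67, 10.76 and 10.72 in ASP, against 9.60, 9.64 and 9.58 in CON (log2 difference 1.11 ± 0.06 SE, 2.15-fold, limma adjusted p = 2.97e-10). Rab3c rose 1.65-fold, with 9.77, 9.81 and 9.63 in ASP and 8.96, 9.0 and 9.09 in CON. Rab3b was not called (-0.12), and Rab3d, a form of exocrine and endocrine granules, fell to 8.63, 8.61 and 8.59 in ASP against 9.21, 9.24 and 9.10 in CON (log2 difference -0.57, or -0.40 and not called after cyclic loess). The 4 Rab3 genes thus divided into 2 higher, 1 not called and 1 lower. The 4 genes of Rab3 regulators (Rab3gap1, Rab3gap2, Rab3il1 and Rab3ip) were not called. Among the 12 genes from Rab30 to Rab39, Rab37 and Rab39b rose (log2 differences 0.67 and 1.02) and none was called lower, with a median difference of 0.01. Without these 12, 29 of 75 genes rose and 6 fell.

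**Figure D3:**
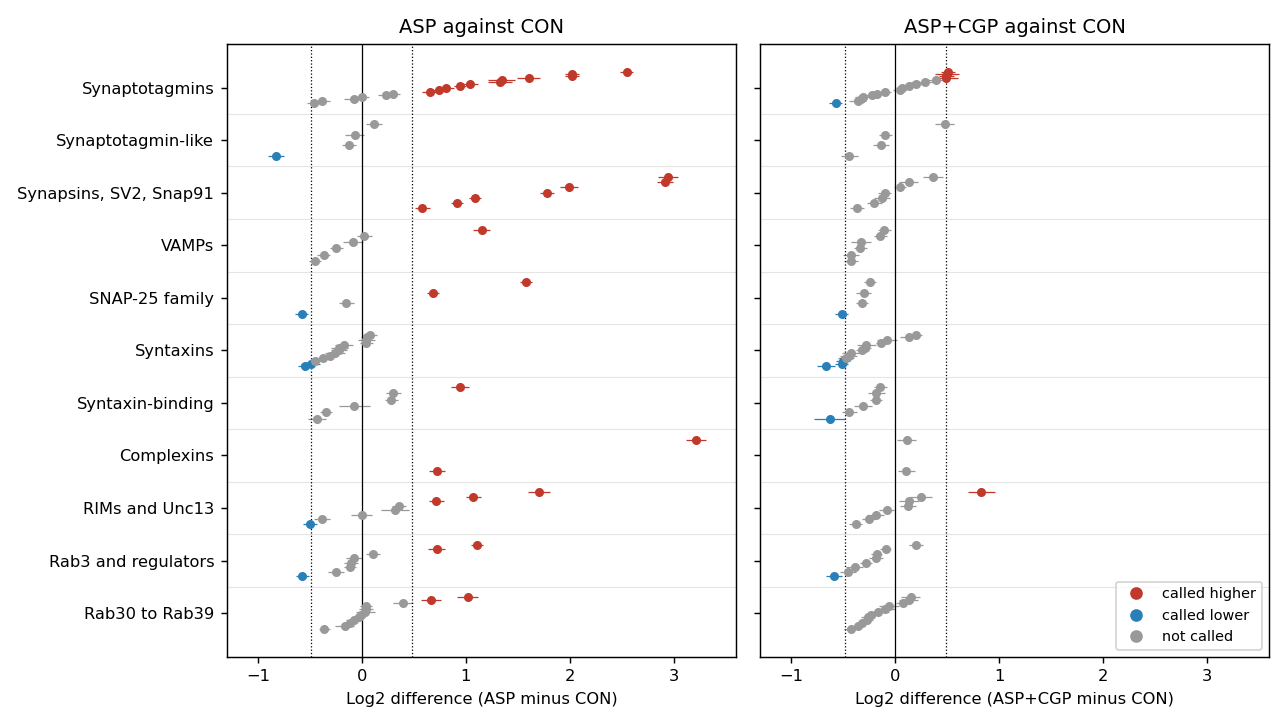
Log2 difference with its standard error for each of the 87 genes tested, grouped by role, in ASP minus CON (left) and ASP+CGP minus CON (right), with dotted lines at a 1.4-fold change. In ASP the synaptotagmins, the synapsin, SV2 and Snap91 group and the complexins hold most of the rises and no syntaxin is called higher, while in ASP+CGP most genes of every role lie within the dotted lines.

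The genes known from chromaffin cells and neurons alike were set beside those known mainly from neurons. Of 11 shared genes, 8 rose in ASP and none was called lower. Of 9 neuron-only genes tested, likewise 8 rose (7 of 8 without Sv2b), against the 9.81% called higher over all genes. The median log2 difference was 1.07 for the shared genes and 1.33 for the neuron-only genes (1.13 without Sv2b), beside -0.10 for all genes and -0.07 for the 55 other members of the families, of which 13 rose and 6 fell. On the single ASP arrays the median of the shared genes lay 0.99 to 1.15 above the CON mean and that of the neuron-only genes 1.11 to 1.51, so the ranges overlapped slightly. The differences within each set were wider than between the sets: from -0.39 (Unc13b) to 2.92 (Sv2a) among the shared genes, and from 0.32 (Unc13c) to 3.21 (Cplx1) among the neuron-only genes. Paralog pairs with a member in each set showed no single order. Cplx1 had a larger difference (3.21) than Cplx2 (0.72), whereas Syt1 (2.02) exceeded Syt2 (1.33). Such an order compares differences and not levels, and Syt2 had a CON mean of only 6.67. Sv2b, with a CON mean of 5.22, was not ordered against Sv2a. Moving Syn1 to the shared set gave medians of 1.09 and 1.13. Taking the mean over all probe sets of a gene gave a median of 0.72 for the shared genes.

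Marker genes of brain cell types moved with these genes. All 15 neuron markers tested rose in ASP, with a median log2 difference of 2.00, and their mean log2 signal was 10.09 to 10.17 on the ASP arrays against 7.72 to 7.80 on the CON arrays. All 9 oligodendrocyte markers rose (median 2.08), with mean signals of 9.11 to 9.31 in ASP and 6.70 to 6.73 in CON. Among them, Ermn had means under 6 in all pools but ASP (4.92 in CON and 6.39 in ASP). It entered the test through its ASP level alone, and no further support is drawn from it. All 10 astrocyte markers rose (median 2.18), with mean signals of 9.80 to 9.96 in ASP and 7.56 to 7.63 in CON. Markers of glia thus rose together with the release genes. Among 15 chromaffin markers, 1 rose and 6 fell (median -0.42), with mean signals of 10.92 to 11.00 in ASP and 11.29 to 11.34 in CON. Among 11 adrenal cortex markers 4 fell (median -0.24), and among 13 hepatocyte markers 11 fell (median -1.16). Of 8 endothelial markers 5 fell, and of 4 Schwann cell markers 1 rose. Beside these counts, 9.81% of all genes tested were called higher and 8.13% lower. The markers of the labelled tissue were bright in every pool, with mean cortex signals of 12.06 to 12.12 in ASP and 12.39 to 12.40 in CON. The part of these other cell types in the rise of the release genes was not tested. In whole tissue, fewer cells of a type and less RNA per cell cannot be told apart.

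**Figure D4:**
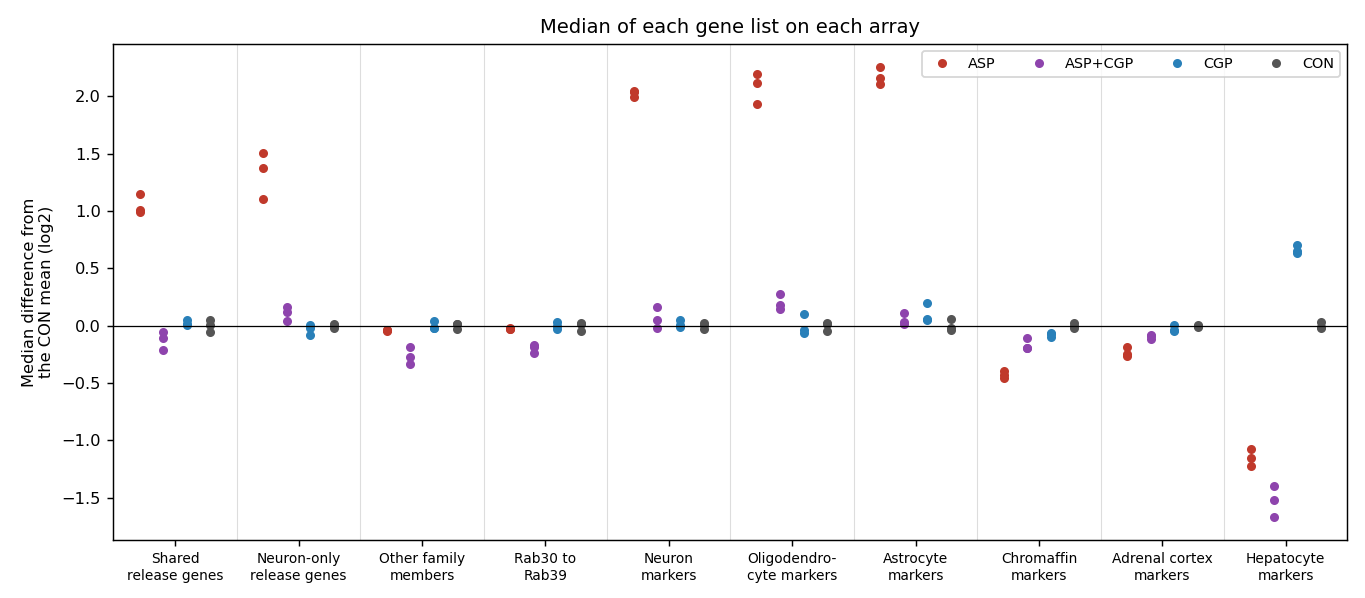
Median over each gene list of the log2 difference from the CON mean, for every array of the ASP, ASP+CGP, CGP and CON pools. In ASP both release gene sets and the neuron, oligodendrocyte and astrocyte markers lie above 0.9, and the chromaffin, cortex and hepatocyte markers lie below 0.

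A separate list held 42 further genes of release and vesicle recycling, of which 27 rose and 1 fell in ASP (median log2 difference 0.71). The shares over all genes were 9.81% called higher and 8.13% called lower. Slc17a6, the vesicular glutamate transporter VGLUT2, had signals of 8.35, 8.83 and 8.56 in ASP, against 5.55, 5.62 and 5.10 in CON, a rise of at least 5.98-fold. Slc17a6 and Cadps2, both among the 27, had means under 6 in all pools but ASP. They entered the test through their ASP level alone, and no further support is drawn from them. Napb, which encodes beta-SNAP, a brain adaptor for the disassembly of SNARE complexes, had 10.01, 10.02 and 9.95 in ASP and 7.34, 7.22 and 7.27 in CON (6.56-fold, limma adjusted p = 9.37e-14). Amph, an endocytic adaptor, rose 4.96-fold and Syngr3, a vesicle membrane protein, 4.31-fold. The single gene of this list that fell was Slc18a1, the vesicular monoamine transporter of chromaffin granules and itself one of the chromaffin markers. It had 9.54, 9.60 and 9.65 in ASP and 10.34, 10.34 and 10.33 in CON (log2 difference -0.74 ± 0.06 SE, limma adjusted p = 1.39e-07). The vesicular transporters of the list thus did not move alike. Slc17a7 and Slc32a1 were also called higher (log2 differences 1.39 and 2.04), while Slc18a2 was not called (-0.04).

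The comparison of CGP with CON addressed the receptor antagonist without aspartame. None of the 87 genes was called by limma in either direction, and 4 had an unadjusted p under 0.05. Over all genes, 1.62% were called higher, 0.0189% were called lower and 9.75% had an unadjusted p under 0.05. The differences ran from -0.20 (Syt8) to 0.28 (Rab30). Cplx1 had 7.70, 8.14 and 7.72 in CGP against 7.78, 7.81 and 7.74 in CON, and Snap25 had 10.70, 10.72 and 10.64 against 10.76, 10.85 and 10.77. The medians of the shared and neuron-only genes were 0.02 and -0.04. Neuron markers likewise had 0 of 15 called in CGP, while 11 of 13 hepatocyte markers were higher (median 0.68).

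The comparison of ASP+CGP with CON asked how the glands of mice given both agents differed from those given neither. It shares the CON arrays with the comparisons above. Of 87 genes, 5 were called higher and 7 lower, against 6.09% and 8.32% of all genes, so the shares among the members were near the background. None of the 11 shared genes was called (median -0.13), and of 9 neuron-only genes Syt2 and Unc13c were called higher (median 0.11). Snap25 had 10.47, 10.51 and 10.43 in ASP+CGP and 10.76, 10.85 and 10.77 in CON. Its difference of -0.32 was under the fold minimum, although the arrays did not overlap. Syn1 was similarly at 8.58, 8.63 and 8.38 in ASP+CGP, below the 8.83, 8.97 and 8.88 of CON, and was not called. Neuron markers had 3 of 15 called higher (median 0.02) and hepatocyte markers 13 of 13 lower (median -1.54).

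The 5 genes called higher in ASP+CGP were all near the fold minimum except Unc13c. The probe set used for Unc13c had 7.71, 7.45 and 7.93 in ASP+CGP, against 7.07, 6.53 and 6.99 in CON (1.78-fold, limma adjusted p = 0.000118), but it was not called with the mean over the gene's probe sets, where the difference was 0.24. Syt15, a synaptotagmin without calcium binding, had 7.42, 7.30 and 7.37 in ASP+CGP and 6.88, 6.84 and 6.84 in CON (1.42-fold, limma adjusted p = 3.54e-05). Syt2, Syt6 and Syt13 had folds of 1.41 each. After cyclic loess Syt13 and Unc13c stayed called. The genes called lower were Stx16, Stxbp4, Rab3gap2, Syt12, Snap23, Stx5a and Stx17, with log2 differences from -0.66 to -0.50. Stx16, a syntaxin of the trans-Golgi network, had 7.81, 7.64 and 7.74 in ASP+CGP and 8.35, 8.42 and 8.41 in CON. None of these decreases was called after cyclic loess, and Stxbp4 was also not called with the mean over its probe sets (-0.43). The count of calls varied with single ASP+CGP arrays, since 7 genes were called without replicate 1 and 21 without replicate 2. Without ASP+CGP replicate 1, Syt2, Syt6, Syt13, Syt15 and Snap23 lost the call (0.45, 0.46, 0.47, 0.48 and -0.48), and without replicate 3, Syt2, Syt13, Stx17 and Stxbp4 did (0.44, 0.42, -0.46 and -0.47). Calls were also lost without CON replicate 1 (Snap23, -0.48), replicate 2 (Syt2 and Syt13, 0.47 and 0.43) and replicate 3 (Syt6 and Stx17, 0.48 and -0.47).

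The comparison of ASP+CGP with ASP addressed what developmental antagonism changed in mice given aspartame. Of 87 genes, 38 were lower and 4 higher in ASP+CGP, against 13.3% and 6.55% of all genes. Of the shared genes, 9 of 11 were lower (median -1.11), and of the neuron-only genes 8 of 9 were lower (median -1.12). Sv2b, under 6 in all pools but ASP, is among the 8 and the 38. Unc13c was called higher at the probe set used, but with the mean over its probe sets it was called lower (-0.91). That mean takes in probe sets under 6 in ASP+CGP (means of 4.43 to 5.54), so its size is not firm. Cplx1 had 7.94, 7.89 and 7.81 in ASP+CGP, against 11.00, 11.04 and 10.91 in ASP (log2 difference -3.10 ± 0.09 SE, limma adjusted p = 1.13e-12). Snap25 had 10.47, 10.51 and 10.43 in ASP+CGP and 12.42, 12.39 and 12.30 in ASP, a difference of -1.90. Syt1 differed by -2.19, Sv2a by -3.04 and Syn1 by -2.15. Stx1a had 8.22, 8.18 and 7.99 in ASP+CGP and 8.01, 8.0 and 8.03 in ASP and was not called (0.12). The genes called higher were Stx11, Sytl1, Syt15 and Unc13c. Stx11 had 8.27, 8.19 and 8.35 in ASP+CGP and 7.55, 7.50 and 7.89 in ASP, a log2 difference of 0.63 ± 0.09 (SE). The calls of Unc13c (without ASP replicate 3 or ASP+CGP replicate 3, 0.47 and 0.40), Sytl1 (without ASP replicate 2 or ASP+CGP replicate 1, 0.43 and 0.47) and Syt15 (without ASP+CGP replicate 1, 0.48) were lost without 1 array, and cyclic loess ended all 3 (0.36, 0.37 and 0.35) and left that of Stx11. In the list of other release genes, 28 of 42 were lower and none was higher. Slc17a6 and Cadps2, under 6 in all pools but ASP, are among the 28. The neuron, oligodendrocyte and astrocyte markers were lower in all 15, 9 and 10 genes (medians -2.08, -1.98 and -2.04), and their part in these differences was not tested. Ermn, under 6 in all pools but ASP, is among the 9.

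Whether the aspartame difference itself differed with and without CGP 39551 was tested by the interaction, which is ASP+CGP minus CGP less ASP minus CON. Of 87 genes, 35 had a lower and 6 a higher aspartame difference with the antagonist, against 15.5% and 9.02% of all genes. For Cplx1 the aspartame difference was 0.03 with CGP 39551 and 3.21 without it, an interaction of -3.18 ± 0.13 (SE, limma adjusted p = 1.17e-10). For Sv2a it was -0.24 with and 2.92 without, and for Syt11 -0.16 with and 2.55 without. For Syt2 and Syt13 the aspartame differences were 0.54 and 0.51 with CGP 39551, against 1.33 and 1.60 without, and the differences with the antagonist were not tested on their own. For Sv2b both pools given CGP 39551 lay under 6, so no aspartame difference with the antagonist is given. Sv2b is counted among the 35, having passed the filter through its ASP level alone. Stx1a, Unc13b, Snap23, Stx17, Rab3d, Rims4 and Stx5a were among the genes with no called interaction, with estimates from -0.03 to 0.26. Each treatment combination is 1 pool, so a difference between pools and a difference between treatments cannot be told apart in any of these comparisons.

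**Figure D5:**
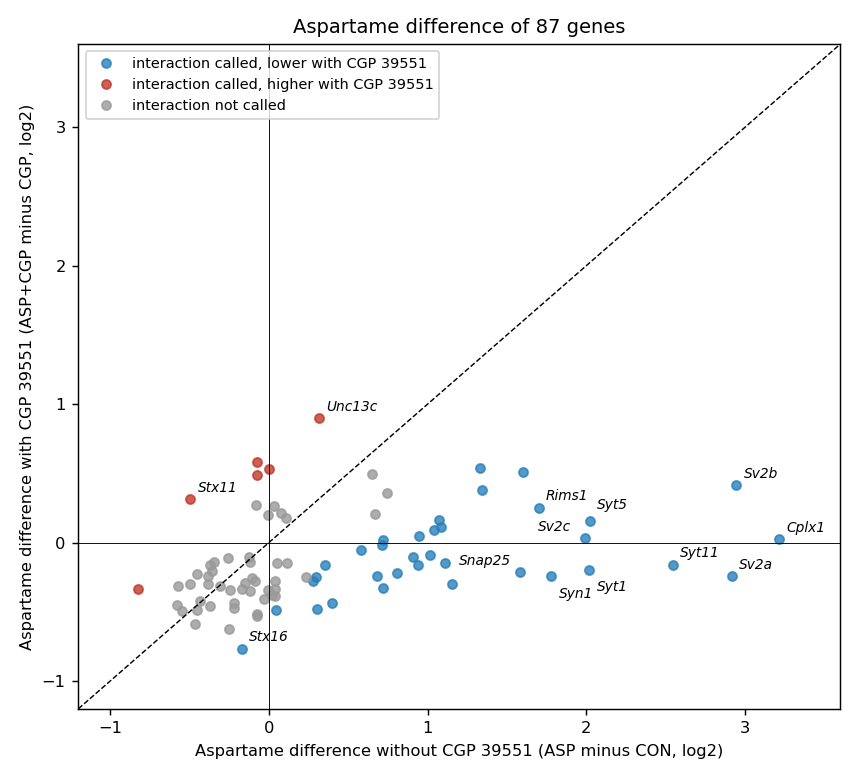
Aspartame difference of each of the 87 genes with CGP 39551 (ASP+CGP minus CGP, vertical axis) against the same difference without it (ASP minus CON, horizontal axis), both in log2 units, with the line of equality dashed and colours for the interaction call. Genes with differences over 1 without the antagonist lie within 0.6 of zero with it.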

How the data were processed

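Expression was measured in 4 pools of adrenal RNA on 12 arrays, with 3 arrays per pool. The authors deposited 1 log2 signal for each probe set and array, computed by RMA within the Partek program, and the labels give no version of either. RMA removes background, makes the arrays' distributions alike by quantile normalization and summarises probes by median polish. The platform's probe list gave a single gene symbol for 17710 of 26533 probe sets, several symbols for 1077 and no symbol for 7746. Each gene was taken at its single-symbol probe set with the highest mean, giving 16244 genes, of which 344 that stayed under a mean of 6 in all groups were dropped. All 12 arrays entered 1 model with a mean per pool, using lmFit and eBayes of limma 3.58.1. Calculations ran under R 4.3.3, and tables were read by data.table (version 1.17.8). Benjamini-Hochberg adjustment was applied to the 15900 p-values of each contrast. A call needed an adjusted p under 0.05 and a fold of at least 1.4, as in the study's methods. Where a pool's mean was under 6, it was set to 6 and the fold given as a bound. Precision is limited by the number of arrays, which have no counting depth. The steps were tested on simulated data.

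The members, gene lists and tests were chosen with earlier results of these data known. Named genes were all tested members of the shared and neuron-only sets, then the 4 highest and 4 lowest called of the other members in the comparisons of ASP with CON, of ASP+CGP with CON and of ASP+CGP with ASP, and the same for ASP with CON in the list of other release genes. Other members are named to complete a role. Alternatives covered the filter on dim genes, array scaling, moderation, the arrays fitted, array weights, a replicate block, the fold minimum, the choice of probe set, the class of Syn1, and leaving out each array. Counting without Rab30 to Rab39, and without members under 6 in CON, was added after seeing the data. Promoter motifs were searched with Python 3.11.15 and pandas 2.3.3, and figures drawn with matplotlib 3.10.9. Sequences come from RefSeq.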

Additional observations from a re-analysis of the deposited data

Results flagged for a closer look

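The aspartame difference differed with and without CGP 39551, by the interaction in limma, for 28 of 37 named genes, where 15.5% of all genes were called lower and 9.02% higher. Many of the 37 were named for large differences in ASP against CON or ASP+CGP against ASP, which enter the interaction, so the count is a description only. Sv2b, counted among the 28, was under 6 in all pools but ASP. Its interaction is listed below with the others, but its size is not firm and no support is drawn from it. The values below, in log2 units, are the difference with the antagonist minus that without it. Among the vesicle membrane and reserve-pool genes the interaction was -3.16 for Sv2a, -2.53 for Sv2b, -2.02 for Syn1, -1.96 for Sv2c and -1.01 for Snap91. For the synaptotagmins the interaction was -2.70 for Syt11, -2.22 for Syt1, -1.87 for Syt5, -1.09 for Syt13, -0.96 for Syt10, -0.79 for Syt2 and -0.55 for Syt7. Among the SNARE genes and their binding proteins the interaction was -1.80 for Snap25, -1.45 for Vamp1, -1.10 for Stxbp5l and -0.60 for Stx16. For the complexins the interaction was -3.18 for Cplx1 and -0.70 for Cplx2. Among the RIM and Unc13 genes the interaction was -1.45 for Rims1, -0.91 for Unc13a and -0.73 for Rims3. For the Rab3 genes the interaction was -1.25 for Rab3a and -1.04 for Rab3c. It was higher with the antagonist at 0.49 for Sytl5, 0.53 for Syt15, 0.56 for Sytl1, 0.58 for Unc13c and 0.81 for Stx11. Without 1 array the calls of Sytl5 (0.42 to 0.55 over the arrays left out), Syt15 (0.46 to 0.59), Sytl1 (0.44 to 0.64) and Unc13c (0.46 to 0.75) were lost at the low end of their range. Cyclic loess removed these 4 calls and that of Syt7, at 0.37, 0.34, 0.36, 0.41 and -0.40. With the mean over its probe sets, several of them under 6 outside ASP, the interaction of Unc13c was -0.88. By the same mean, those of Unc13a (-0.22) and Sytl5 (0.36) were not called.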

How the results depend on the processing

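The counts and medians of ASP against CON kept their direction under all alternatives, with 31 genes called higher whichever array was left out, and CGP against CON had 0 calls in each. Cyclic loess left 1 lower call in ASP against CON, 2 calls in ASP+CGP against CON (2 higher, 0 lower) and 1 higher call each in ASP+CGP against ASP and in the interaction, and moved the median of the shared genes to 1.22. Centring on array medians left 4 lower calls in ASP+CGP against CON. At a fold minimum of 1.8, ASP against CON had 22 calls (0 lower), ASP+CGP against CON 0 (0 higher, 0 lower), ASP+CGP against ASP 24 (0 higher, 24 lower) and the interaction 24 (0 higher). With no fold minimum these were 59 (22 lower) for ASP against CON, 58 (11 higher, 47 lower) for ASP+CGP against CON and 64 (11 higher) for ASP+CGP against ASP. The mean over probe sets gave a median of 0.72 for the shared genes and turned Unc13c to -0.91 in ASP+CGP against ASP and -0.88 in the interaction (limma adjusted p = 5.04e-09 and 5.96e-07). It also ended the calls of Unc13a and Stxbp4 in ASP+CGP against ASP (-0.38 and -0.34). For Unc13c the mean takes in several probe sets under 6 outside ASP, so its sizes are not firm. The cause of these changes was not tested, apart from the fold minimum, which sets the counts directly.

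Over the arrays left out in turn, the calls ranged from 35 to 38 in ASP against CON (4 to 7 lower), 7 to 21 in ASP+CGP against CON (1 to 7 higher, 5 to 14 lower), 38 to 44 in ASP+CGP against ASP (2 to 6 higher, 35 to 38 lower) and 40 to 44 in the interaction (4 to 6 higher, 35 to 38 lower). ASP+CGP replicate 1 gave the low ends of 7 calls and of 1 and 2 higher calls, and replicate 2 the high ends of 21 and 14. The deviations of arrays with the same replicate number in different pools had r from -0.15 to 0.38 (median 0.08, against -0.07 for different numbers), with 5 of 12 arrays closest to their own number, and replicate 2 had the highest array median in all 4 pools. Since not every correlation was over 0.1, the numbers were not taken as pairs. With the replicate number as a block the calls were 37 in ASP against CON, 0 in CGP against CON, 12 in ASP+CGP against CON, 42 in ASP+CGP against ASP and 41 in the interaction, the same counts as without it.

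The main limit is the design: each group is 1 pool of RNA, so differences between mice were not measured. Gene identity rests on the platform's symbols, and genes with several probe sets can disagree. Signals near 6 are close to the dim limit, so folds of Sv2b and Slc17a6 are bounds.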
